A study of Mus musculus with 39 samples.

Results

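Tumors of the PB2 mouse breast cancer model that carried p95HER2 were compared with tumors that carried full-length HER2 (FL-HER2), both collected 10 days after implantation. The libraries were chosen by label alone, which gave 10 of p95HER2 and 10 of FL-HER2, 20 of the 39 in the series. No treatment is named, and both groups carry a HER2 construct in PB2 cells, so no HER2-free tumor enters the comparison. The sources used here do not give the strain, age and sex of the hosts or the promoter behind each construct. Poly(A) RNA of whole tumors was sequenced in directional libraries, so tumor cells and host cells were measured together. In such bulk RNA, fewer cells of a type and less RNA per cell cannot be told apart.

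HER2, the product of ERBB2, is a receptor tyrosine kinase with no known ligand of its own that signals in pairs with EGFR, HER3 or HER4, mainly through the RAS-MAPK and PI3K pathways. p95HER2 is a family of carboxy-terminal fragments that lack most or all of the extracellular domain and so escape antibodies against it. In human mammary cell lines, some of these fragments are known to form active homodimers. The series was designed to compare how the truncated and the full-length receptor affect tumor gene expression at an early and a late stage.

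After the deposited values were turned back into whole reads, the 20 libraries held 30797813 to 40063799 reads each and 15523 to 17124 genes with at least 1 read, the lowest number in p95HER2 replicate 5. Epithelial markers were high in every library, with Epcam at 439, 626 and 773 counts per 1000000 reads (CPM) in FL-HER2 and 421, 599 and 668 CPM in p95HER2 tumors. Here and below, 3 values of a gene are the lowest, the median and the highest of 10 libraries. Skeletal muscle RNA differed between the groups. The 26 genes of a muscle list took 1.93% ± 1.18 of the reads in FL-HER2 (SD, n = 10, range 0.0516% to 3.98%) and 0.328% ± 0.423 in p95HER2 (n = 10, range 0.00437% to 1.09%), with p = 0.00043 in a two-sided permutation test (0.00172 adjusted over 4 library measures). FL-HER2 replicates 10 and 1, at 0.0516% and 0.928%, lay within the p95HER2 range. The skin list took 0.0369% to 0.0707% of the reads in FL-HER2 replicates 7 and 10 and p95HER2 replicates 7, 8 and 9 and at most 0.0102% in the other libraries, but its share did not differ between the groups beyond their spread (permutation p = 0.858). The number in the column name has 5 digits in 8 FL-HER2 libraries, which may be pools, and 3 digits in FL-HER2 replicates 7 and 9 and in all p95HER2 libraries. Whether each library is 1 tumor, and whether tumors came from separate animals, is not given in the sources used here, so p-values reflect only how far these libraries spread, in part perhaps for technical reasons.

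Across 13314 genes tested on the deposited log2 values, 4976 (37.4%) passed limma's test, of which 1784 (13.4%) were higher and 3192 (24.0%) lower in p95HER2 tumors at an adjusted p under 0.05. The shares of 13.4% higher and 24.0% lower are the background for the counts in gene lists below. Large rises were fewer than large falls, with 103 genes (0.774%) higher and 860 (6.46%) lower by at least 2-fold. In 192 genes (1.44%) every p95HER2 library lay above every FL-HER2 library on the deposited scale, and in 193 (1.45%) every one lay below. The split between higher and lower depended on the scaling. The higher genes were 35.9% of the calls on the deposited values, 50.1% on log2(CPM + 1), 49.3% after scaling by median-of-ratios factors and 61.3% after quantile normalization, which moved the median change of all genes from -0.0397 to 0.0626. With the mean log2 value of the muscle list in each library as a covariate, 2003 genes were called, 716 (5.38%) higher and 1287 (9.67%) lower, and 1771 of the 4976 calls (35.6%) were kept. Among the 2 FL-HER2 and 4 p95HER2 libraries with 0.1% to 1.3% muscle reads 27 genes were called, and against the 2 FL-HER2 libraries with 3-digit numbers alone 608 were, 336 (2.52%) of them higher and 272 (2.04%) lower. The fit with the muscle covariate is called muscle-adjusted below, and 98.3% of the 4976 calls had the same sign in it. Changes are p95HER2 minus FL-HER2 in log2(normalized count + 1), ± SE, a scale that understates changes of genes near 0, and a level in CPM is not divided by gene length.

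A small set of genes went from close to no reads to clear expression in p95HER2 tumors. Hmga2, which encodes an architectural chromatin protein of embryonic tissue, had 0.295, 0.580 and 0.988 CPM in FL-HER2 and 33.8, 45.7 and 56.0 CPM in p95HER2 libraries. Its groups were far apart, and its change was 6.21 ± 0.19, adjusted p = 1.68e-15. Il24, whose product is related to IL-10, had 0, 0 and 0.113 CPM in FL-HER2 and 2.04, 5.94 and 17.2 CPM in p95HER2 (6.79 ± 0.41, adjusted p = 1.57e-10), and the FL-HER2 median was 0. Dynap, which encodes a dynactin-binding membrane protein, had 0, 0.130 and 0.543 and 10.5, 13.4 and 17.0 CPM (6.46 ± 0.38, adjusted p = 1.39e-10). No FL-HER2 library had a read of Aqp8, an aquaporin water channel, of Gpr149, an orphan G protein-coupled receptor, or of Wnt7a, a Wnt ligand. Against a floor of 3 reads over the FL-HER2 group, p95HER2 tumors were at least 484-fold higher in Aqp8, at least 407-fold higher in Gpr149 and at least 243-fold higher in Wnt7a. In p95HER2 libraries these 3 genes had 2.31, 4.17 and 6.11, 2.30, 3.16 and 5.97 and 1.24, 2.003 and 3.19 CPM. Tmprss11e, a membrane serine protease, had 0, 0 and 0.150 and 1.49, 2.35 and 3.74 CPM (5.73 ± 0.32, adjusted p = 5.62e-11). All 7 of these genes kept their call in the muscle-adjusted fit, and in each of them every p95HER2 library exceeded every FL-HER2 library. In none of them did an FL-HER2 library reach 1 CPM, so the filter admitted them only through 9 or more p95HER2 libraries. For genes this low in FL-HER2, entry to the test thus nearly fixed the call and the separation in advance. The same holds for Mmp10, Il1a and Hhip below. Without a filter all 7 were called as well. In the mm10 build Wnt7a lies on chromosome 6, 91363981 to 91411363, minus strand, Aqp8 on chromosome 7, 123462291 to 123468004, plus strand, Hmga2 on chromosome 10, 120361275 to 120476469, minus strand, and Il24 on chromosome 1, 130882074 to 130887454, minus strand.

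**Figure D1:**
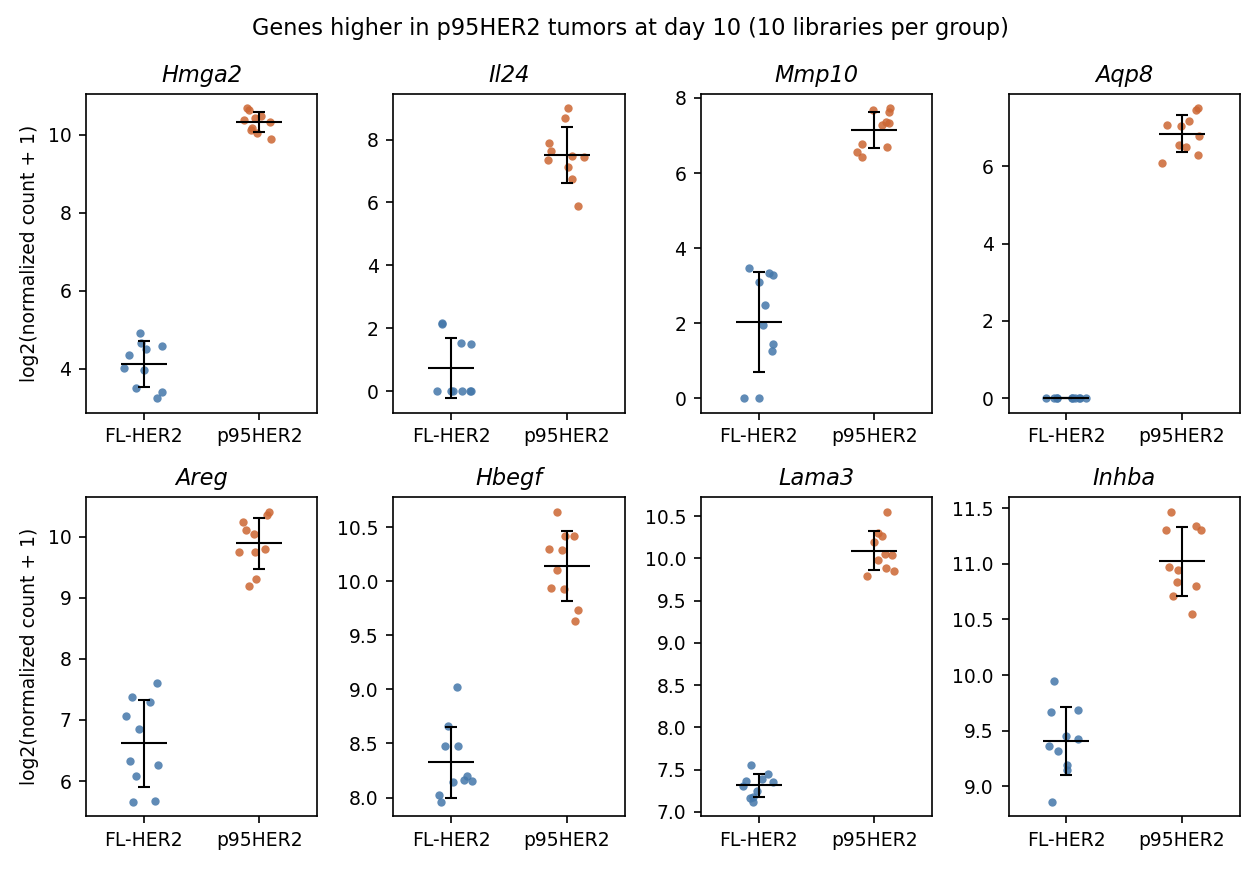
Deposited log2(normalized count + 1) of 8 genes in the 10 FL-HER2 (blue) and 10 p95HER2 (orange) libraries at day 10, with 1 point per library, and the mean and SD in black. In every panel all p95HER2 points lie above all FL-HER2 points, and Aqp8 is at 0 in all 10 FL-HER2 libraries.

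Other large rises mostly started from measurable levels. Msln, the surface glycoprotein mesothelin, had 0, 0.721 and 2.03 and 3.22, 5.30 and 8.97 CPM (3.57 ± 0.56, adjusted p = 6.2e-05). Its FL-HER2 median lay below the 1 CPM of the filter, which its p95HER2 libraries met alone. The limit given above for genes low in FL-HER2 thus holds in part for Msln. Acsbg1, an acyl-CoA synthetase, rose by 2.84 ± 0.22, Prkg2, a cGMP-dependent protein kinase, by 2.77 ± 0.17, and Stra6, the receptor for retinol uptake, by 2.39 ± 0.25. In these 4 genes the groups did not overlap. Otof, the exocytosis protein otoferlin, rose by 2.60 ± 0.35 with overlapping groups. Tnnt2, the cardiac form of troponin T, rose by 2.36 ± 0.16 from 4.04, 6.07 and 8.23 to 22.1, 30.8 and 47.9 CPM, while the muscle list fell. Atg9b, a membrane protein of autophagy, rose by 2.32 ± 0.15, and Slc20a1, a phosphate transporter, went from 64.5, 73.1 and 97.2 to 161, 196 and 230.4 CPM (1.27 ± 0.075, adjusted p = 1.39e-10). All 8 were also higher in the muscle-adjusted fit. In a list of 12 tested oncofetal and imprinted growth genes 4 rose and 4 fell (median 0.16). Beside Hmga2, Igf2bp2, which encodes an RNA-binding protein and is a known target gene of HMGA2 in mouse, had 7.77, 9.58 and 12.7 and 19.2, 21.3 and 24.8 CPM without overlap (1.08 ± 0.085, adjusted p = 9.8e-09), and Hmga1 rose by 1.76 ± 0.35. Dlk1 (-1.77 ± 0.39), Igf2 (-1.97 ± 0.48) and the noncoding RNA H19 (-1.34 ± 0.29), all imprinted, fell. The calls of Igf2 and H19, which muscle also expresses, ended in the muscle-adjusted fit, where their changes were -0.48 and -0.38.

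Of the 4 HER family receptors, Erbb2 rose and the other 3 did not pass the test. Erbb2 had 144, 180.3 and 235 CPM in FL-HER2 and 240.2, 348 and 475 CPM in p95HER2 libraries (0.85 ± 0.099, adjusted p = 2.72e-06). Its CPM ranges did not overlap, although on the deposited scale they did. Erbb2 is the mouse gene for HER2, and reads of the construct count in it only as far as they align to it, so its value is not the level of the transgene. The changes of Egfr (0.23 ± 0.094, adjusted p = 0.0598), Erbb3 (-0.17 ± 0.11, adjusted p = 0.266) and Erbb4 (-0.76 ± 0.30, adjusted p = 0.0519) lay on both sides of 0. In the muscle-adjusted fit Erbb3 (-0.47) and Erbb4 (-1.33) were called lower.

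Among the 7 tested ligands of the family 3 rose and 1 fell (median 0.30). Areg, encoding amphiregulin, a ligand of EGFR, had 1.59, 3.25 and 6.78 CPM in FL-HER2 and 19.4, 33.7 and 46.4 CPM in p95HER2 libraries, with no overlap (3.27 ± 0.24, adjusted p = 4.42e-09). Hbegf, a heparin-binding ligand of EGFR and HER4, had 8.75, 9.79 and 16.1 and 26.5, 42.0 and 54.4 CPM, again with no overlap (1.81 ± 0.14, adjusted p = 6.79e-09). Tgfa, another ligand of EGFR, rose less, from 69.0, 82.6 and 111 to 94.0, 117 and 130.2 CPM (0.42 ± 0.073, adjusted p = 0.000158). Egf, which muscle also expresses, fell by 2.003 on the log2 scale, and its call ended in the muscle-adjusted fit (-0.45, adjusted p = 0.267). Btc and Nrg1 did not pass (0.30 ± 0.29 and -0.31 ± 0.18), and Ereg, Epgn and Nrg4 were below the filter. Of 13 genes that shed these ligands or restrain the receptors 6 rose and 1 fell (median 0.19). They included Errfi1, an inhibitor of EGFR and HER2 kinases that their own signaling induces, with 56.1, 69.1 and 83.2 and 86.4, 106 and 117 CPM and no overlap (0.51 ± 0.067, adjusted p = 1.04e-05). In the muscle-adjusted fit 2 of the 13 were higher and 1 lower (median 0.10), and Errfi1 kept its call. Against the 3-digit FL-HER2 libraries alone 0 of the 13 were called in limma (median 0.13). The Areg promoter is shown because its cyclic AMP response element (CRE), TGACGTCA, reads the same on both strands and lies close to the start site, a site known from work on the human gene. These are the bases -120 to -1 before the transcript start, chr5:91139479-91139598, plus strand (RefSeq, GRCm38.p6), with the CRE at -61 in capitals.
Areg: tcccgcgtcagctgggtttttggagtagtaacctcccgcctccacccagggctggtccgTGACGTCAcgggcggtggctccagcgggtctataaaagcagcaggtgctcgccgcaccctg

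Many, though not all, tested targets of the MAPK pathway rose. Of 21 tested genes in a list of ERK-induced genes and feedback inhibitors 13 rose and 0 fell in limma, and the median change was 0.33 beside -0.0397 for all genes. In 6 of the 21 the groups did not overlap, and 9 rose in the muscle-adjusted fit (median 0.25), in which the calls of Dusp6, Spred2 and Spry4 ended. Against the 3-digit FL-HER2 libraries alone 5 were higher (median 0.32), and among the libraries with 0.1% to 1.3% muscle reads 1 was (median 0.22). Fosl1, the AP-1 subunit FRA1, had 0.774, 1.39 and 3.30 and 5.01, 7.37 and 10.3 CPM (2.22 ± 0.21, adjusted p = 1.84e-07). The nuclear ERK phosphatases Dusp4 and Dusp5 rose by 1.34 ± 0.14 and 1.03 ± 0.11, with 8.46, 11.1 and 18.5 against 17.6, 31.7 and 39.9 CPM for Dusp4. The cytoplasmic ERK phosphatase Dusp6 rose less, by 0.31 ± 0.078, with overlapping groups. Of the feedback inhibitors, Spred1 (0.33 ± 0.052) and Spred3 (0.66 ± 0.11) rose without overlap and Spred2 and Spry4 with overlap, while Spry2 (adjusted p = 0.0530) did not pass. Epha2, a receptor tyrosine kinase induced by ERK, rose by 0.56 ± 0.061 without overlap, and Etv4, a PEA3 family transcription factor, by 0.33 ± 0.063. Ccnd1, the cyclin D1 gene, did not pass (0.063 ± 0.076, adjusted p = 0.535). The summed level of the list was 2398, 2899 and 3414 CPM in FL-HER2 and 2984, 3339 and 3527 CPM in p95HER2 libraries. The highest FL-HER2 sum was that of replicate 10, the FL-HER2 library with the least muscle RNA, and the part of muscle RNA in the difference was not tested beyond the covariate. Among 14 AP-1 genes, 4 rose and 1 fell (median -0.20), so the rise of Fosl1 was not shared by most subunits.

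**Figure D2:**
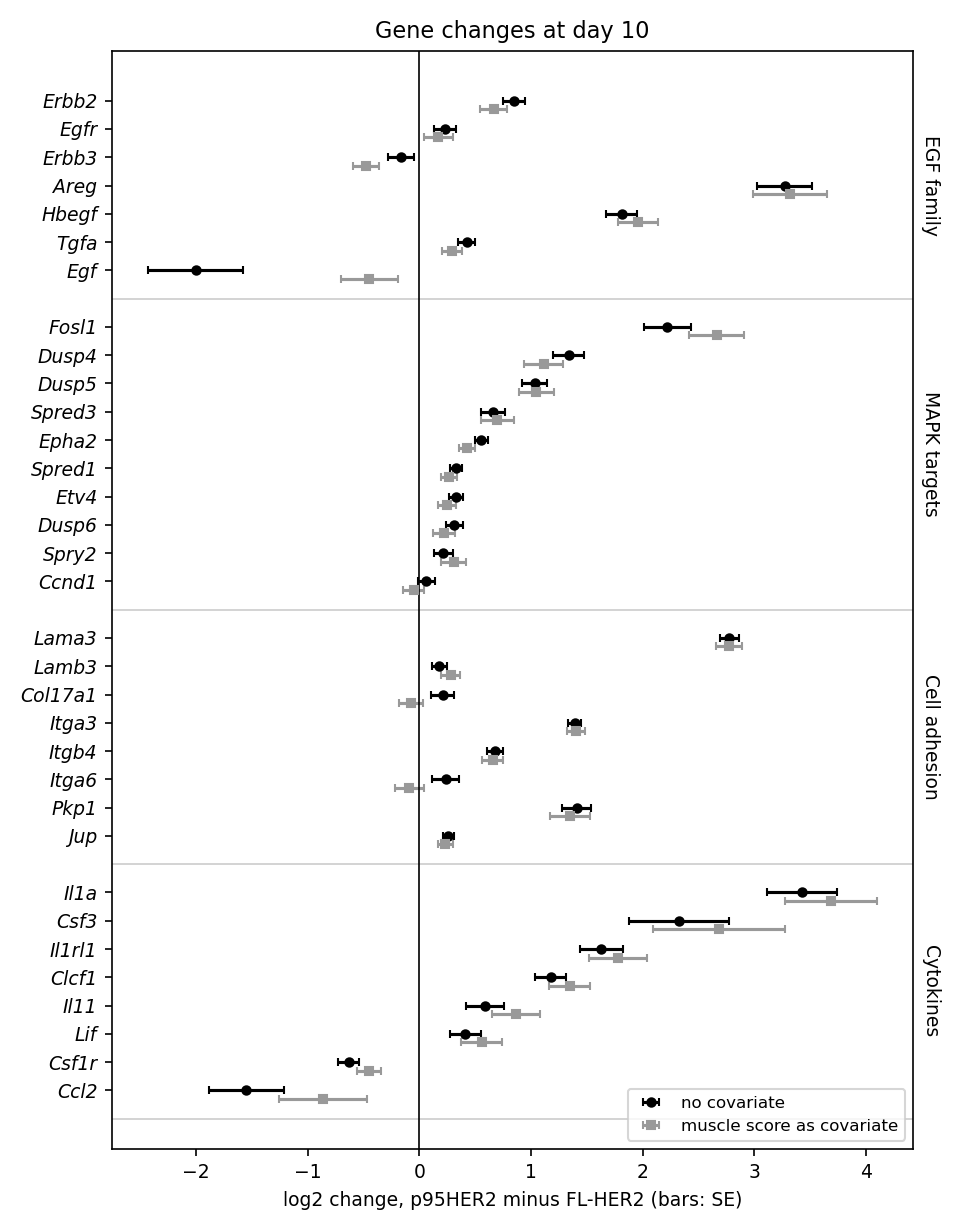
Log2 change in p95HER2 against FL-HER2 tumors at day 10, with SE, for genes of 4 groups, without a covariate (black circles) and with the muscle score as a covariate (gray squares). Areg, Fosl1, Lama3 and Il1a lie above 2 in both fits, and Egf moves from about -2 to -0.45.

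Several genes that attach epithelium to its basement membrane rose, and others did not pass. Laminin-332 is a heterotrimer to which Lama3 and Lamb3 each give a chain, and it binds the integrins α3β1 and α6β4. In the list of laminin-332 and hemidesmosome genes 5 of 9 rose and 0 fell in limma (median 0.21), the same counts as in the muscle-adjusted fit, and in 3 genes the groups did not overlap. Lama3 had 4.46, 5.41 and 6.71 and 30.1, 37.0 and 50.1 CPM (2.78 ± 0.087, adjusted p = 1.68e-15). Lamb3 rose by only 0.18 ± 0.068 (adjusted p = 0.0446), so the increases of Lama3 and Lamb3 were unequal. The call of Lamb3 lay close to the threshold, and 4 of the 9 genes were called without a filter, with the rank-sum test, in the fit of all 39 libraries and with the skin covariate. Of 18 integrin genes 8 rose and 4 fell (median 0.22). Itga3, the α3 subunit, had 69.3, 75.9 and 84.9 and 178, 207 and 256 CPM, with a gap between the groups wider than the range of FL-HER2 (1.39 ± 0.059, adjusted p = 2.75e-13). Itgb4, the β4 subunit, rose by 0.68 ± 0.069 without overlap, whereas its partner Itga6 did not pass (0.24 ± 0.12, adjusted p = 0.139). Itgb1 rose by 0.20 ± 0.054 and Itga2, a subunit of a collagen receptor, by 0.98 ± 0.18, while Itga7, the muscle laminin receptor, fell by 1.296 and Itga11, a collagen receptor of fibroblasts, by 1.24 on the log2 scale. The calls of Itga2, Itgb1 and Itga7 ended in the muscle-adjusted fit. Itga3 lies on chromosome 11, 95044474 to 95076801, minus strand (mm10).

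Basement membrane genes moved in both directions. Of 16 in the list 8 rose and 4 fell (median 0.23). In the muscle-adjusted fit 4 were higher and 2 lower, and the median was -0.03. Against the 3-digit FL-HER2 libraries alone 4 were higher and 0 lower in limma (median 0.31). Lamb1 had 181, 203 and 243 and 289.9, 338 and 395 CPM (0.66 ± 0.050, adjusted p = 6.03e-09), Lama5 rose by 0.72 ± 0.093 and Col18a1, the precursor of endostatin, by 1.02 ± 0.14. Lama2, the laminin chain of muscle and peripheral nerve, had 6.95, 11.9 and 16.2 and 2.17, 2.79 and 6.31 CPM and fell without overlap (-1.81 ± 0.22, adjusted p = 3.91e-06). Nid1 (-0.62 ± 0.15) and Col15a1 (-0.63 ± 0.17) fell, and the call of Col15a1 ended in the muscle-adjusted fit. Of 9 desmosome genes 4 rose and 1 fell (median 0.20). The plaque protein gene Pkp1 had 15.2, 23.9 and 36.8 and 50.3, 66.5 and 80.3 CPM (1.41 ± 0.13, adjusted p = 1.19e-07), the cadherin gene Dsg3 rose by 1.92 ± 0.28, and both showed no overlap. Jup, encoding plakoglobin, rose by 0.26 ± 0.051.

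Several secreted inflammatory factors rose, while many other members of the same families fell or did not pass. Of 10 IL-1 family genes 3 rose and 2 fell (median 0.14). Il1a, a cytokine that epithelial cells release on damage, had 0.0567, 0.179 and 0.637 and 1.54, 2.34 and 4.20 CPM (3.43 ± 0.31, adjusted p = 9.21e-08). Il1rl1, the receptor for IL-33, had 1.497, 2.35 and 3.86 and 4.79, 7.83 and 15.5 CPM (1.63 ± 0.20, adjusted p = 3.69e-06), and Il1rap, the shared coreceptor, rose by 0.63 ± 0.11. Of 16 genes of the IL-6 family and colony-stimulating factors with their receptors, 5 rose and 7 fell (median 0.05). Clcf1 rose without overlap (1.18 ± 0.14), Csf3, the granulocyte growth factor G-CSF, rose by 2.33 ± 0.45, Il11 by 0.59 ± 0.17 and Lif by 0.41 ± 0.14, and Csf1r, the receptor of macrophages, fell by 0.63. Of 14 genes of prostaglandin synthesis and signaling 3 rose and 6 fell (median -0.20). Ptgs2, the inducible cyclooxygenase COX-2, had 20.6, 29.2 and 32.5 and 36.5, 52.4 and 85.8 CPM (0.9997 ± 0.15, adjusted p = 4.05e-05), and Ptgs1 rose by 0.54 ± 0.088, both without overlap, whereas Ptges, the inducible synthase of prostaglandin E2, changed by -0.067 ± 0.058 (adjusted p = 0.383). The receptor genes Ptger3 (-2.46 ± 0.42) and Ptgir (-1.14 ± 0.20) and the prostacyclin synthase gene Ptgis (-1.49 ± 0.31) fell, and the call of Ptgis ended in the muscle-adjusted fit.

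Matrix proteases moved in both directions. Of 16 genes of metalloproteinases and their inhibitors 3 rose and 6 fell (median -0.16), with the same counts in the muscle-adjusted fit. Against the 3-digit FL-HER2 libraries alone the median turned to 0.20, with 1 higher and 1 lower. Mmp10, encoding stromelysin-2, had 0, 0.126 and 0.316 and 2.81, 5.47 and 7.17 CPM (5.11 ± 0.43, adjusted p = 2.81e-08). Mmp13, a collagenase, had 3.44, 7.65 and 16.6 and 7.78, 18.5 and 54.2 CPM with overlap (1.49 ± 0.32, adjusted p = 0.00124), and Mmp12, the macrophage elastase, rose by 0.96 ± 0.27. Timp3, an inhibitor held in the matrix, had 439.5, 505 and 601.2 and 304, 346 and 403 CPM and fell without overlap (-0.58 ± 0.077, adjusted p = 1.16e-05). Of 11 genes of the plasminogen activator system 4 rose and 1 fell (median 0.11). They included Plaur, the urokinase receptor (0.74 ± 0.15), and Serpinb2, an inhibitor of urokinase (1.90 ± 0.39). Of 22 genes of TGF-β and activin signaling 5 rose and 2 fell (median 0.07). Inhba, the activin A subunit, stood out with 16.7, 22.9 and 31.3 and 52.0, 70.7 and 96.8 CPM (1.62 ± 0.13, adjusted p = 1.43e-08).

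Promoters of some of these genes hold an AP-1 motif, TGANTCA, which reads the same on both strands when N is disregarded. RefSeq promoters (GRCm38.p6), 300 bases from 250 before to 50 after the start, were matched by symbol for 10410 of the 13314 tested genes (78.2%). The motif stood in 669 of them (6.43%), in 14 of 68 genes higher by at least 2-fold (20.6%) and in 72 of 648 genes lower by at least 2-fold (11.1%). Over all calls the shares were 7.43% of the genes higher and 7.92% of the genes lower, against 5.65% of the genes not called. For the CRE the shares were 3.53% of all promoters, 4.41% of those higher and 0.926% of those lower by at least 2-fold. These are descriptions of letters in a window, and neither share was tested. Bases -120 to -1 of 3 genes described above are shown with the AP-1 motif in capitals, for Mmp10 at -63 (chr9:7502222-7502341, plus strand), Mmp13 at -35 (chr9:7272394-7272513, plus strand) and Il1a at -12 (chr2:129309973-129310092, minus strand).
Mmp10: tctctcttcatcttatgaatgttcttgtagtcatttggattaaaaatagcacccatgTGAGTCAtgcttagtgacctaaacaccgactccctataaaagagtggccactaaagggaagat
Mmp13: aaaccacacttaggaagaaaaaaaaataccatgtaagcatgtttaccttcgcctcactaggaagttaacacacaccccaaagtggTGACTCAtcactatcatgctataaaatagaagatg
Il1a: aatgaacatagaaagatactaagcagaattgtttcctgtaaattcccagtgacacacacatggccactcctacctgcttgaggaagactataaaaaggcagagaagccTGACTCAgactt

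Growth factor genes outside the EGF family also divided. Of 16 genes of the IGF axis 2 rose and 5 fell (median -0.04). Igf1r, the receptor gene, had 53.05, 59.5 and 71.0 and 74.5, 86.7 and 99.3 CPM (0.47 ± 0.066, adjusted p = 1.81e-05), while its ligand gene Igf1 (-1.26 ± 0.19) and the binding protein gene Igfbp6 (-2.27 ± 0.32) fell. The receptor rose where its ligand, which fibroblasts and macrophages express, fell. Of 16 genes of angiogenic ligands 3 rose and 4 fell (median -0.14). The platelet-derived growth factor genes Pdgfa (0.49 ± 0.090) and Pdgfb (0.47 ± 0.10) rose, and Pdgfd (-1.52 ± 0.21), Angpt1, encoding a ligand of the TIE2 receptor (-1.003 ± 0.16), and Vegfd, a lymphatic growth factor (-1.87 ± 0.32), fell. All 5 were also called in the muscle-adjusted fit. Of 13 genes of CDK inhibitors and D cyclins 5 rose and 2 fell (median -0.02). Cdkn2b, which encodes the inhibitor p15, had 9.24, 13.3 and 18.1 and 15.3, 24.5 and 28.4 CPM (0.77 ± 0.12, adjusted p = 7.41e-05), and Cdkn1c, which encodes p57 and is imprinted, had 4.69, 8.51 and 10.4 and 1.39, 2.19 and 5.51 CPM (-1.57 ± 0.25, adjusted p = 6.4e-05). Of 14 FOXO target genes, which AKT signaling holds down, 4 rose and 7 fell (median -0.18). Txnip, an inhibitor of thioredoxin and of glucose uptake, fell from 107, 139 and 166 to 57.4, 81.5 and 98.3 CPM (-0.88 ± 0.10, adjusted p = 2.48e-06), whereas Ccng2 (0.42 ± 0.097) rose. In the BCL2 family 1 of 14 rose, the survival gene Bcl2 (0.33 ± 0.060), and 3 fell, among them Bik, which promotes cell death (-0.77 ± 0.17).

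Junction and contact signaling genes showed single large changes rather than shifts of whole lists. Of 15 tight junction genes 4 rose and 2 fell (median -0.03). Cldn4, encoding claudin 4, had 0.917, 2.48 and 4.63 and 4.44, 6.92 and 11.7 CPM (1.51 ± 0.23, adjusted p = 4.34e-05), and Ocln, encoding occludin, fell by 0.54. Of 15 Notch genes 3 rose and 2 fell (median 0.10), and the ligand gene Jag1 had 18.8, 23.2 and 33.7 and 35.3, 46.0 and 64.6 CPM (0.91 ± 0.11, adjusted p = 6.29e-06). Of 14 YAP targets 3 rose and 2 fell (median 0.02), with Axl, a receptor tyrosine kinase, lower (-0.50 ± 0.078). Of 17 Eph receptors and ephrins 2 rose and 2 fell (median -0.02). Of 14 genes of epithelial identity 1 rose and 2 fell (median -0.09), including Ovol1, a transcription factor of differentiating epithelium (-0.79 ± 0.16). Of 14 retinoid genes 4 rose and 6 fell (median -0.10), so the rise of Stra6 was not shared by most of them. Against the 3-digit FL-HER2 libraries alone the retinoid median turned to 0.22, with 2 higher and 0 lower in limma.

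Epithelial lineage genes moved in both directions, as did all tested genes (13.4% higher and 24.0% lower). Of 17 luminal keratins and lineage factors 2 rose and 5 fell (median -0.02). Krt7 had 86.5, 105 and 131 and 186, 233 and 298 CPM, with no overlap (1.13 ± 0.10, adjusted p = 8.17e-08). Krt8 and Krt18, the main luminal keratins, did not pass (0.011 ± 0.076 and 0.25 ± 0.13), while Krt19 had 66.1, 104 and 110.3 and 54.0, 64.2 and 88.8 CPM and fell (-0.64 ± 0.095, adjusted p = 3.33e-05). Pgr, the progesterone receptor gene, fell by 1.04 and Cited1, a luminal transcription cofactor, by 0.85, whereas Esr1 did not pass (-0.23 ± 0.10, adjusted p = 0.0859). Gata3, a luminal transcription factor, also did not pass (-0.20 ± 0.10). Of 7 basal keratins and Trp63, 2 rose and 3 fell (median -0.09). Krt15, a keratin of basal and progenitor cells, had 76.3, 94.4 and 106 and 31.8, 38.3 and 62.6 CPM and fell without overlap (-1.24 ± 0.10, adjusted p = 2.44e-08). Trp63 fell by 0.36 and Krt14 by 0.30, while Krt17 (0.55 ± 0.14) and Krt16 (1.003 ± 0.37) rose. In the muscle-adjusted fit 0 of the 7 were higher and 2 lower in limma (median -0.41), and the calls of Krt14, Krt16 and Krt17 ended. Of 11 factors and markers of epithelial-mesenchymal transition 1 rose, the N-cadherin gene Cdh2 (0.88 ± 0.17), and 5 fell (median -0.43). The genes that fell, among them Snai2 (-0.92 ± 0.17), Prrx1 (-1.20 ± 0.19) and Vim (-0.63 ± 0.13), are also expressed by fibroblasts, whose own markers also fell. In which cells these genes fell was not tested. In the muscle-adjusted fit 1 was higher and 3 were lower, and the call of Vim ended. Against the 3-digit FL-HER2 libraries alone the median turned to 0.11, with 1 gene higher and 0 lower in limma.

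**Figure D3:**
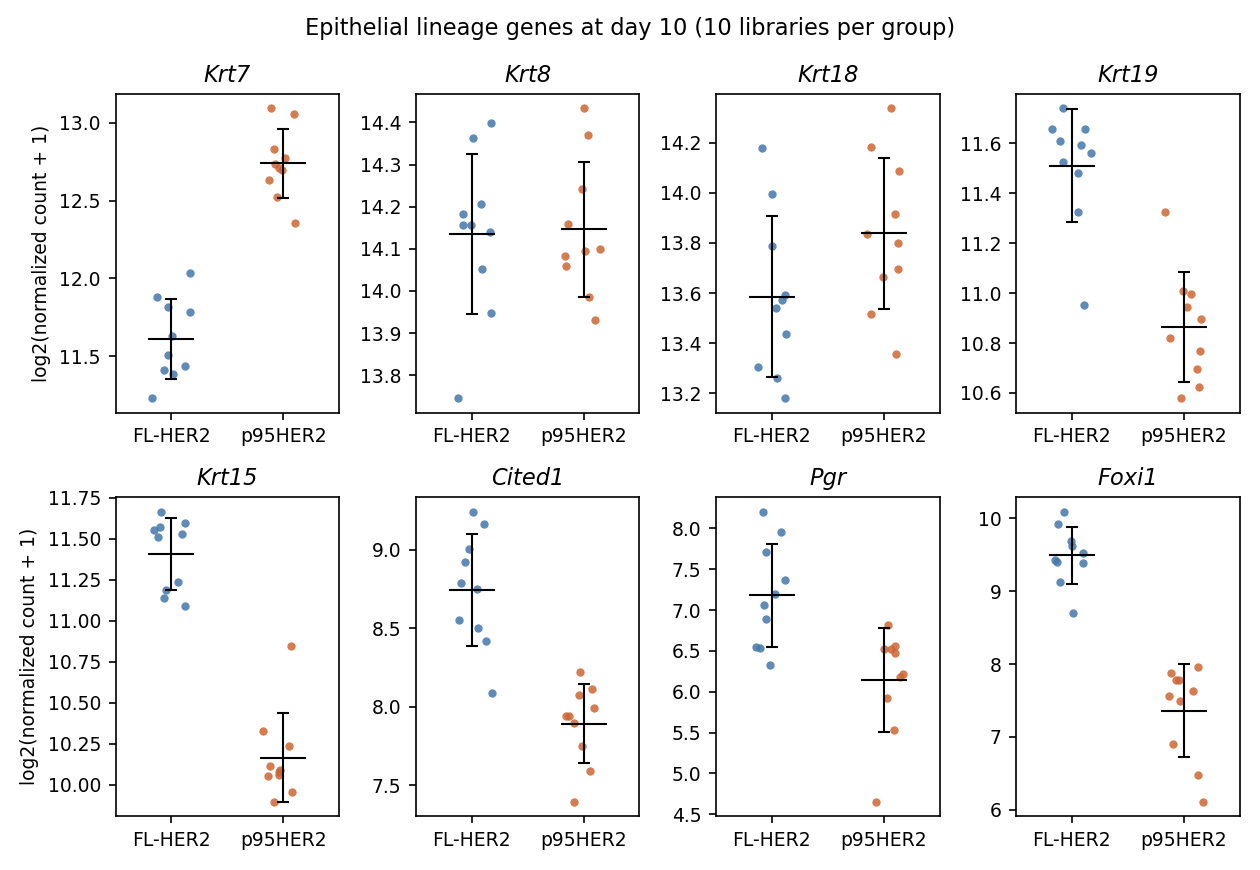
Deposited log2(normalized count + 1) of 8 epithelial lineage genes in the 10 FL-HER2 (blue) and 10 p95HER2 (orange) libraries at day 10, with 1 point per library, and the mean and SD in black. Krt7 is higher and Krt15 and Foxi1 are lower in every p95HER2 library than in every FL-HER2 library, while Krt8 and Krt18 overlap.

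Genes of the circadian clock were shifted, with 7 of 19 higher and 4 lower (median 0.10). The output regulators Dbp, with 2.95, 5.66 and 7.91 and 8.35, 10.1 and 14.97 CPM (0.87 ± 0.16, adjusted p = 0.000218), and Hlf, with 0.612, 1.84 and 2.76 and 3.25, 4.65 and 9.10 CPM (1.47 ± 0.22, adjusted p = 3.7e-05), rose without overlap. The repressor genes Bhlhe40 (0.50 ± 0.073), Bhlhe41 (0.55 ± 0.097) and Nr1d2 (0.54 ± 0.11) also rose. Npas2, a partner of the activator BMAL1, had 4.99, 5.90 and 7.28 and 2.95, 3.29 and 4.57 CPM and fell without overlap (-0.81 ± 0.11, adjusted p = 1.07e-05), and Cry2 fell by 0.48. Arntl, which encodes BMAL1, did not pass (-0.14 ± 0.074, adjusted p = 0.155). The hour of collection is not given in the sources used here, so time of day and construct cannot be told apart.

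Metabolic and housekeeping genes showed small changes, and many of these calls ended in the muscle-adjusted fit. Of 23 cholesterol synthesis genes 16 rose and 0 fell in limma (median 0.27), among them Hsd17b7, an enzyme of the pathway (0.57 ± 0.11), but in the muscle-adjusted fit 1 was called (list median 0.06). Of 26 oxidative phosphorylation genes 24 fell (median -0.28), such as Ndufb8 (-0.38 ± 0.068) and Sdha (-0.26 ± 0.046), and 1 was lower in the muscle-adjusted fit (median -0.14). Of 25 ribosomal protein genes 9 rose and 0 fell in limma (median 0.11), as Rpl3 did (0.24 ± 0.061), and 17 rose in the muscle-adjusted fit (median 0.23). With the other scalings 16 to 19 of them were higher, except with voom, where 9 were. Of 18 p53 target genes 9 rose and 0 fell in limma (median 0.14), and 6 rose and 1 fell in the muscle-adjusted fit. Mdm2, which restrains p53, rose by 0.37 ± 0.064, Zmat3 by 0.47 ± 0.084 and Cdkn1a, the p21 gene, from 174, 203 and 229 to 223, 241 and 276 CPM (0.21 ± 0.061, adjusted p = 0.00910). Bbc3, a target that promotes cell death, did not pass (0.088 ± 0.094). Of 17 unfolded protein response genes 5 fell (median -0.17), of 19 hypoxia genes 1 rose and 4 fell (median -0.05), and of 16 glycolysis genes 2 rose and 5 fell (median -0.07), some of which, such as Pfkm (-1.85 ± 0.41), are muscle isoforms, and the call of Pfkm ended in the muscle-adjusted fit.

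**Figure D4:**
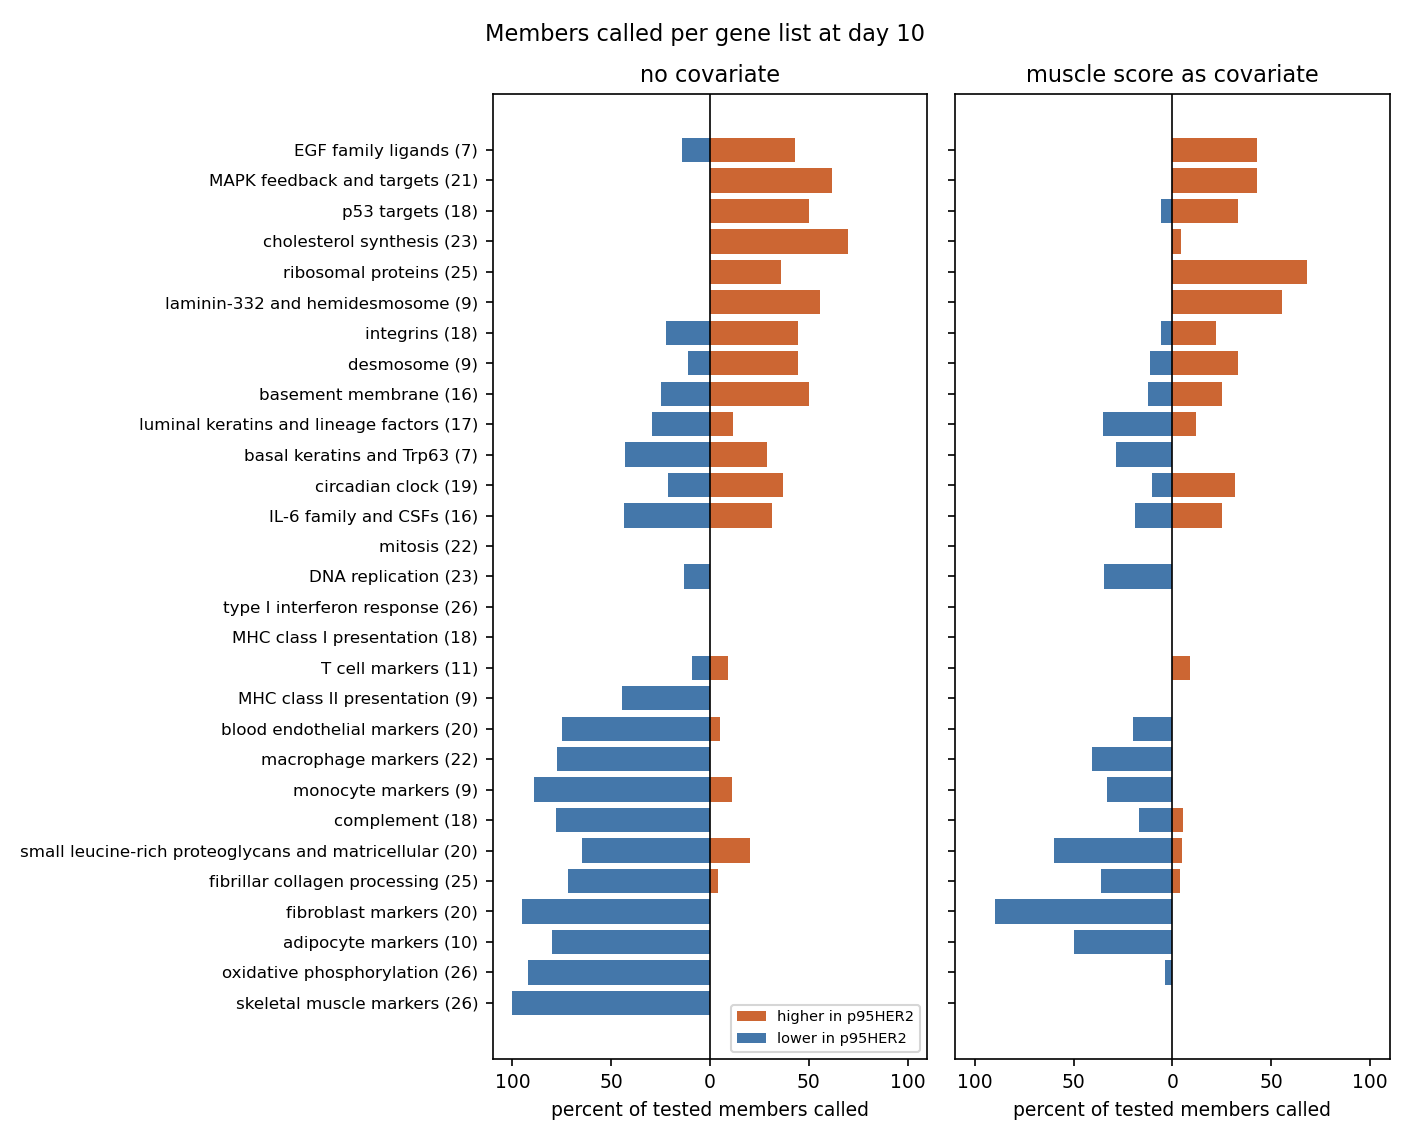
Percent of the tested members of 29 gene lists that were called higher (orange, right) or lower (blue, left) in p95HER2 tumors, without a covariate (left panel) and with the muscle score as a covariate (right panel), with the number tested in brackets. For fibroblast markers, 19 of 20 and 18 of 20 are lower in the 2 panels, for skeletal muscle 26 and 0 of 26, and for cholesterol synthesis 16 and 1 of 23 are higher.

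Fibroblast genes were lower in p95HER2 tumors. Of 20 fibroblast markers 19 fell (median -1.42), and 18 were lower in the muscle-adjusted fit (median -1.14). Dcn, encoding the proteoglycan decorin, had 123, 203 and 240.5 and 35.5, 66.7 and 113 CPM (-1.66 ± 0.20, adjusted p = 3.91e-06). Dpt, a gene of universal fibroblasts, had 67.8, 116 and 158 and 7.32, 27.4 and 59.2 CPM (-2.46 ± 0.36, adjusted p = 3.35e-05). Neither gene overlapped between the groups. Ogn, which encodes the proteoglycan osteoglycin, fell by 2.396, Col3a1 from 2378, 4691 and 7265 to 1168, 1414 and 2621 CPM (-1.54 ± 0.19, adjusted p = 5.61e-06) and Col1a1 by 0.79, a call that ended in the muscle-adjusted fit. Pdgfra, a receptor of fibroblasts, was the exception, with 83.9, 97.5 and 126 and 82.2, 103 and 126 CPM (-0.021 ± 0.068, adjusted p = 0.826). The summed level of the list was 9870, 17713 and 28301 CPM in FL-HER2 and 5730, 8084 and 12938 CPM in p95HER2 libraries, with overlap. Against the 2 FL-HER2 libraries with 3-digit numbers alone, the median was -0.84 and no member was called. These 2 libraries, replicates 7 and 9, had the lowest sums of the list in FL-HER2 (9870 and 12685 CPM). Of 25 genes of fibrillar collagens and their processing 1 rose, Plod2, and 18 fell (median -0.70). In the muscle-adjusted fit 1 of the 25, a gene other than Plod2, was higher and 9 were lower (median -0.55). Against the 3-digit FL-HER2 libraries alone 0 of them were called in limma (median -0.21). Of 20 small proteoglycans and matricellular genes 4 rose and 13 fell (median -1.07). The 4 that rose were Spp1, encoding osteopontin, with 1116, 1223 and 1381 and 1656, 2435 and 3362 CPM and no overlap (0.96 ± 0.12, adjusted p = 3.72e-06), Vcan (0.53 ± 0.11), Tnc (0.55 ± 0.18) and Sparcl1 (0.39 ± 0.11). In the muscle-adjusted fit 1 of the list, Spp1, was higher and 12 were lower (median -0.94), and the call of Plod2 ended too.

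Among called genes with a mean of at least 5 CPM in the higher group, predicted genes and pseudogenes left out, the 15 largest falls were in striated muscle genes. They were led by Myh7 (-5.94 ± 1.57), Myh4 (-5.53 ± 1.46) and Ckm (-5.39 ± 1.39). All 26 members of the muscle list fell (median -4.32), and 0 did in the muscle-adjusted limma fit, which uses their mean (median 0.06). Outside the muscle list, Chad had the largest fall among genes with at least 5 CPM in FL-HER2 tumors that were also lower in that fit. This gene, encoding the cartilage protein chondroadherin, had 9.01, 15.5 and 41.6 and 0.530, 1.86 and 3.64 CPM and no overlap (-3.41 ± 0.32, adjusted p = 1.48e-07). Spon2, encoding the matrix protein spondin 2 (-2.77 ± 0.37), Sfrp4, a secreted Wnt antagonist (-2.75 ± 0.40), Pamr1 (-2.74 ± 0.34), Fbln7, a fibulin (-2.59 ± 0.38), and Wisp2, a matricellular protein (-2.37 ± 0.35), were other secreted or matrix genes among the 15 largest. Pamr1 fell without overlap, and Spon2, Sfrp4, Fbln7 and Wisp2 overlapped. Clic5 (-3.07 ± 0.60), Slc38a4 (-2.89 ± 0.50), Mlf1 (-2.70 ± 0.49), Cacna2d1 (-2.70 ± 0.50), Ankrd33b (-2.49 ± 0.41) and Sgca, a sarcoglycan of muscle (-2.51 ± 0.33), also fell, but their changes were -0.66, -1.03, -0.86, -0.80, -1.07 and -1.36 in the muscle-adjusted fit. Of 10 adipocyte markers 8 fell (median -1.35) and 5 were lower in that fit, among them Lpl, the lipoprotein lipase gene, with 52.2, 93.9 and 165 and 17.8, 32.09 and 44.2 CPM (-1.75 ± 0.23, adjusted p = 8.34e-06).

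**Figure D5:**
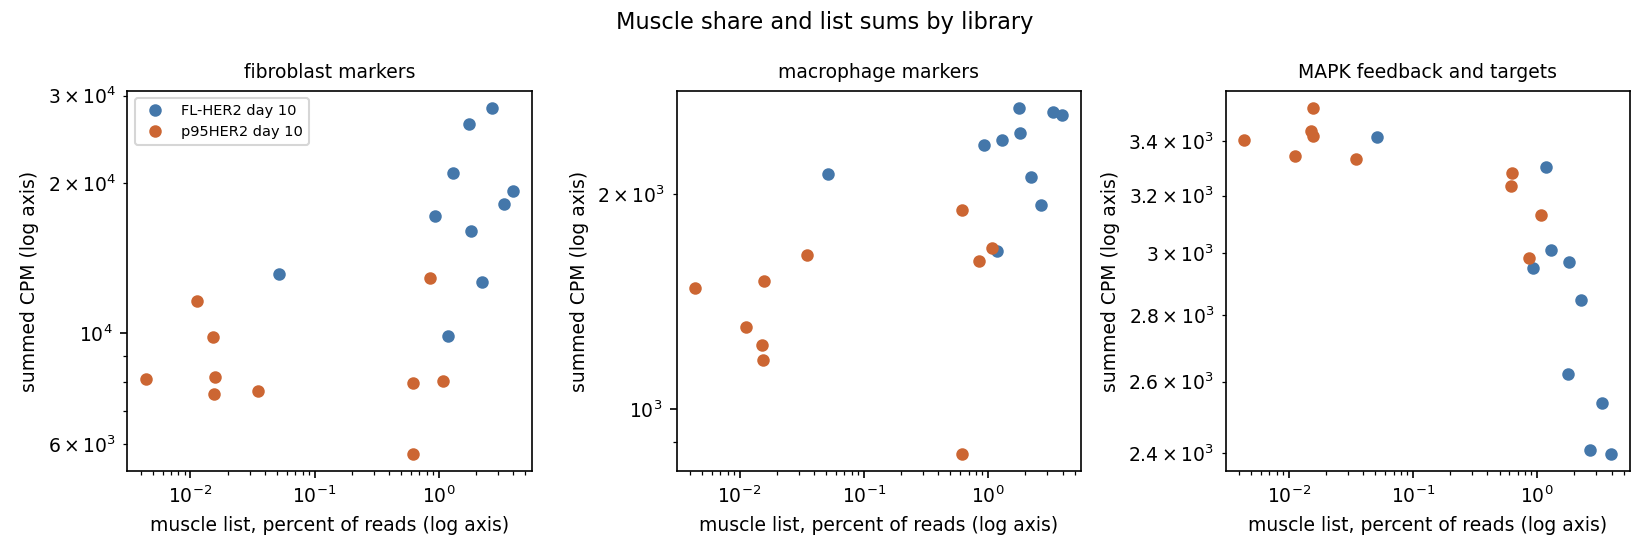
Percent of reads in the muscle list (log axis) against the summed CPM (log axis) of fibroblast markers, macrophage markers and MAPK targets, with 1 point per library of FL-HER2 (blue) or p95HER2 (orange) tumors. The FL-HER2 library with 0.0516% muscle reads lies above 10, 10 and 7 of the 10 p95HER2 libraries in the 3 panels.

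Myeloid and endothelial markers were also lower. Of 22 macrophage markers 17 fell and 0 rose in limma (median -0.74), and 9 were lower in the muscle-adjusted fit (median -0.48). Adgre1, which encodes F4/80, had 30.4, 46.9 and 60.7 and 15.9, 22.9 and 30.9 CPM (-1.12 ± 0.12, adjusted p = 1.19e-06), C1qa fell by 0.73 and Mrc1, the mannose receptor gene, by 0.73. The list summed to 1667, 2364 and 2640 CPM in FL-HER2 and to 865, 1496 and 1900 CPM in p95HER2 libraries. Of 9 monocyte markers 8 fell and 1, F13a1, rose (median -1.51), and 3 were lower and 0 higher in the muscle-adjusted limma fit (median -0.96). Ccr2, the receptor that draws monocytes from blood, had 24.0, 29.8 and 34.1 and 8.81, 12.5 and 18.7 CPM, with no overlap (-1.295 ± 0.13, adjusted p = 2.24e-07), and its ligand gene Ccl2 fell by 1.55. The calls of C1qa, Mrc1, F13a1 and Ccl2 ended in the muscle-adjusted fit, and those of Adgre1 and Ccr2 did not. Of 18 complement genes 14 fell (median -0.79) and 3 were lower in the muscle-adjusted fit, where 1 was higher. Of 20 blood endothelial markers 15 fell and 1 rose (median -0.58), with Pecam1 at -0.56 ± 0.13 and Cdh5, the VE-cadherin gene, at -0.47 ± 0.14, and 4 were lower in the muscle-adjusted fit, in which neither of these 2 was called. Against the 3-digit FL-HER2 libraries alone the endothelial median was -0.20, with 0 genes lower and 1 higher.

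Other host cell lists also held more falls than rises, as did all tested genes (24.0% lower and 13.4% higher). Of 18 genes of chemokines for leukocytes 9 fell and 0 rose in limma (median -0.75), and 1, Cxcl12, which fibroblasts secrete, was also lower in the muscle-adjusted fit (27.8, 34.5 and 44.0 and 14.2, 20.3 and 30.7 CPM, -0.82 ± 0.15, adjusted p = 0.000214). Of 11 dendritic cell markers 5 fell and 1 rose (median -0.68), with Cd83 at -1.06 ± 0.17. Of 9 genes of MHC class II presentation 4 fell (median -0.66), and 0 did in the muscle-adjusted limma fit. Of 9 neutrophil markers 3 fell and 1, Trem1, rose (median -0.01). Of 17 activated fibroblast genes 8 fell and 1 rose (median -0.34), among them Cthrc1, with 29.6, 58.3 and 91.4 and 8.91, 12.3 and 31.2 CPM (-1.92 ± 0.24, adjusted p = 5.4e-06), and Postn, encoding periostin (-0.80 ± 0.16). Of these genes 6 were lower in the muscle-adjusted fit, but against the 3-digit FL-HER2 libraries alone the median turned to 0.14, with 0 lower and 1 higher in limma. Those 2 libraries had the lowest sums of the activated fibroblast list in FL-HER2 (3153 and 3231 CPM). Of 16 pericyte and smooth muscle markers 5 fell and 2 rose (median -0.18), with Rgs5, a pericyte gene, at -1.08 ± 0.17. Their median too turned against the 3-digit libraries, to 0.24, with 1 higher and 1 lower. Of 8 Schwann cell and nerve markers 5 fell and 1 rose (median -0.82), among them the myelin gene Pmp22 (-1.41 ± 0.19).

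Interferon, antigen presentation and lymphocyte genes did not separate the groups beyond the spread within them, with few exceptions. Of 26 type I interferon response genes 0 passed in limma (3 at an unadjusted p under 0.05, median -0.51), as with voom and the rank-sum test, although 3 were lower without FL-HER2 replicate 10 and 3 without p95HER2 replicate 9. Their summed level was 1434, 4316 and 9169 CPM in FL-HER2 and 1273, 2808 and 5676 CPM in p95HER2 libraries. Of 18 interferon gamma response genes and of 18 genes of MHC class I presentation 0 passed (0 at an unadjusted p under 0.05 in each, medians -0.43 and -0.36), with voom and the rank-sum test as in limma. Cd274, the PD-L1 gene, had 4.49, 29.9 and 89.4 and 4.93, 13.3 and 50.1 CPM and changed by -0.65 ± 0.53 (adjusted p = 0.351). Against the 3-digit FL-HER2 libraries alone, the median of the type I list was -1.66, with 6 genes lower. These 2 libraries, replicates 7 and 9, had the highest sums of that list in FL-HER2 (5939 and 9169 CPM). Of 15 checkpoint ligand genes 4 rose and 4 fell (median -0.34). Nt5e, encoding CD73, an enzyme that makes adenosine, had 25.8, 29.2 and 36.5 and 47.9, 58.4 and 76.3 CPM and no overlap (0.94 ± 0.092, adjusted p = 2.55e-07). Vtcn1, encoding B7-H4, fell without overlap (-1.40 ± 0.19, adjusted p = 1.47e-05), and Vsir, encoding VISTA, fell by 0.81. Of 11 T cell markers 1 rose, Tcf7, and 1 fell, Cd2 (median -0.33), a call that ended in the muscle-adjusted fit, and Cd8a ran from 0.0275 to 20.9 CPM in p95HER2 libraries (0.15 ± 0.74). Of 22 mitosis genes 0 passed in limma (1 at an unadjusted p under 0.05, median 0.09), as with voom and the rank-sum test, although 3 were higher without FL-HER2 replicate 10. Mki67, the proliferation marker, had 255, 358 and 520.1 and 311, 381 and 561 CPM (0.12 ± 0.11). Of 23 DNA replication genes 3 fell and 0 rose in limma (median -0.06). In the muscle-adjusted fit 8 of the 23 were lower and 0 higher (median -0.18), beside 9.67% of all tested genes lower.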

How the data were processed

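RNA of whole tumors was extracted with RNeasy mini plus columns and sequenced as directional poly(A) libraries, per the labels' protocols. Per the submitters' processing notes, STAR 2.4.2a, DESeq2 and the mm10 build were used. The sources used here do not give the read counter, annotation or strand setting, so overlapping and antisense genes are uncertain. The authors deposited 1 table of log2 values, log2(read count divided by a library's size factor, plus 1), although its name says CPM. Low values stepped in whole reads, and 100% of values in the 20 libraries came out whole (tolerance 0.001 reads), which gave the totals and the CPM values. No 2 libraries held identical values (0 such pairs, correlations 0.846 to 0.992).

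Groups came from the labels. One FL-HER2 column, replicate 8, was matched by its sample's description because the title's tumor number lacks the last digit. The 13314 genes that reached 1 CPM in 9 or more of the 20 libraries were tested with limma 3.58.1 in R 4.3.3 (lmFit, eBayes with trend) on the deposited values, two-sided, with Benjamini-Hochberg adjustment over all of them and calls at an adjusted p under 0.05. Every adjusted p printed is from limma. Library measures had permutation tests with 100000 resamples. In simulated data on 13314 genes with 50 changed genes per fold, this fit recovered 43 at 1.5-fold, 44 at 2-fold, 50 at 4-fold and 46 at 0.5-fold, with 12 false calls. How many calls were false in the tumor libraries, whose groups differed in muscle RNA, was not tested. Alternatives were other filters, pseudocounts, scalings and tests, library weights, all 39 libraries, muscle and skin covariates, muscle-limited libraries, the column number classes and leaving out each library.

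The members and the 79 gene lists (1253 genes, 1236 in the table) were chosen with earlier results of these data known. Genes are named as the 15 largest rises and falls among calls with at least 5 CPM in the higher group, as the 15 largest falls also called with the muscle covariate, as the 10 smallest adjusted p-values, and as list members, chiefly the up to 4 with the smallest adjusted p. Coordinates are from GENCODE M21 and promoters from RefSeq, matched by symbol. Some genes that this rule would name are not reported here.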

Additional observations from a re-analysis of the deposited data

Results flagged for a closer look

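Within each group of 10 libraries, 436 sets of values of the genes named above and of library measures were examined for a lowest or highest library whose gap to its neighbor was, as a part of the group's range, above Dixon's 95% critical value. This held for 41 of them, and chance gives about 1 in 20. Values below are deposited log2 values.

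FL-HER2 replicate 10, with the lowest muscle share of its group, was far below the other 9 FL-HER2 libraries in Ckm (10.12), Myh4 (10.55), Myh7 (6.45), Itga7 (6.87), Cacna2d1 (7.50), Clic5 (5.65), Mlf1 (6.26), Pfkm (10.3), Slc38a4 (6.09) and Ankrd33b (4.95). It was the highest in Tmprss11e, at 2.37. FL-HER2 replicate 9 was far below the rest in Acsbg1 (4.45), Atp6v1b1 (10.27), Jup (13.3), Krt19 (10.95), Lgr5 (8.89), Ptger3 (4.26) and Sparcl1 (10.87), and above it in Trp63 (10.33). FL-HER2 replicate 3 was low in Bbc3 (8.83) and high in Spry2 (11.27), and it had 16288 genes with a read, the fewest of its group. FL-HER2 replicate 4 was high in Bhlhe40 (12.94), and FL-HER2 replicate 7 was low in Ptgir (4.29) and Vegfd (5.92).

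Among p95HER2 libraries, replicate 5 had the fewest genes with a read (15523), the highest values of Jup (14.1), Rpl3 (15.3), Sox11 (10.55) and Spry2 (11.59), and the lowest of Spry4 (8.67). Replicate 6 was low in Cdkn2b (8.79), Col18a1 (12.88), Stra6 (6.28), Tgfa (11.41) and Trp63 (8.65). Replicate 1 was low in Dusp4 (9.02) and high in Krt15 (10.85), replicate 7 was low in Igf1 (7.90), replicate 9 was high in Hlf (8.06), and replicate 10 was high in Wisp2 (8.62).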

How the results depend on the processing

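No paired analysis was possible because the labels give no replicate numbers that the 2 groups share. Leaving out 1 library at a time gave 4369 to 5442 called genes, 1503 to 2022 higher and 2866 to 3420 lower. Under the other alternatives, the numbers called, higher and lower were 2003, 716 and 1287 with the muscle covariate, 27, 25 and 2 in libraries with 0.1% to 1.3% muscle reads, 608, 336 and 272 against the 3-digit FL-HER2 libraries alone, and 963, 103 and 860 at a threshold of 2-fold. Quantile normalization gave 3271 higher and 2064 lower, and library weights gave 2721 higher. In the 8 FL-HER2 and 5 p95HER2 libraries with Krt1, a skin keratin gene, below 1 CPM, an alternative chosen after seeing the data, 2801 were called, 815 higher and 1986 lower. A limit on the skin score was not run because no library met it. Fewer libraries entered the muscle-limited, 3-digit and Krt1 comparisons, and how far this lowered their numbers of calls was not tested. For the other shifts the cause was not tested either.

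Of the 195 called genes named above, 0 to 9 lost the call under the other filters, pseudocounts, scalings, tests, the skin covariate, the fit of all 39 libraries and the omission of the 3-digit libraries, 6 lost it without some single library (Cd2, F13a1, Krt14, Krt16, Lamb3 and Lgr5), 36 with the muscle covariate, 20 in the Krt1 comparison, 108 against the 3-digit libraries and 176 in the muscle-limited libraries. Changes of sign among called genes were few. With the muscle covariate they were Ckm (0.15), Myh4 (0.34), Myh7 (0.21) and Itga7 (0.0014), in the muscle-limited libraries H19 (0.13), Itga7 (0.14) and Spry4 (-0.019), and against the 3-digit libraries Krt14 (0.017), Lgr5 (0.091) and Lif (-0.0078). Signs also changed in genes that had not passed. With the muscle covariate these were Ccnd1 (-0.050), Cd274 (0.17), Itga6 (-0.090) and Mki67 (-0.049). In the muscle-limited libraries they were Btc (-0.45), Cd274 (0.38), Esr1 (0.11), Itga6 (-0.12) and Mki67 (-0.011). Against the 3-digit libraries they were Btc (-0.88), Ccnd1 (-0.036), Nrg1 (0.19) and Pdgfra (0.062), and without those libraries Cd8a (-0.014) and Krt8 (-0.0094). In the Krt1 comparison Btc (-0.018) and Cd8a (-0.43) changed sign, under quantile normalization Nrg1 (0.077), and under library weights Krt8 (-0.040) and Pdgfra (0.044). Pdgfra was at 0.025 with median-of-ratios factors and 0.036 on log2(CPM + 1). Without 1 library at a time, Cd8a ran from -0.26 to 0.67, Krt8 from -0.032 to 0.040 and Pdgfra from -0.050 to 0.0094.

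The groups differed in muscle RNA, with FL-HER2 replicates 1 and 10 within the p95HER2 range. No p95HER2 library has a 5-digit column number, so in the 8 FL-HER2 libraries that do, number class and construct cannot be told apart. Whole tumor RNA does not separate tumor from host cells. Genes near 1 CPM rest on about 30 to 40 reads a library.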

Other observations

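The genes and families below were chosen after their values were seen, and they are given as values. Of the 9 tested Wnt ligand genes 4 were higher and 4 lower in p95HER2 tumors (median 0.12). Beside Wnt7a, the p95HER2 tumors were higher in Wnt7b, with 9.24, 14.1 and 17.9 CPM in FL-HER2 and 28.8, 40.8 and 54.1 CPM in p95HER2 libraries (1.49 ± 0.15, adjusted p = 3.7e-07), in Wnt5b (0.50 ± 0.052) and in Wnt5a (0.72 ± 0.18). Lower were Wnt2, with 2.92, 4.37 and 8.34 and 0.218, 1.11 and 2.06 CPM (-2.33 ± 0.37, adjusted p = 6.46e-05), Wnt9a (-1.07 ± 0.18), Wnt4 (-1.15 ± 0.21) and Wnt2b (-1.27 ± 0.32). With the muscle score as a covariate 3 Wnt ligand genes were higher and 2 lower, and the calls of Wnt5a, Wnt4 and Wnt2b ended. Of 16 Wnt target and feedback genes 2 were higher and 10 lower (median -0.51), among them Axin2 (-0.58 ± 0.16), Lgr5 (-0.44 ± 0.17) and Wif1, a secreted inhibitor (-1.14 ± 0.15). With the muscle score as a covariate 1 of the 16 was higher and 6 were lower (median -0.70). Against the 3-digit FL-HER2 libraries alone 2 were higher and 0 lower in limma (median -0.16). Hhip, the decoy receptor of hedgehog ligands, had 0.0575, 0.115 and 0.226 and 0.886, 2.17 and 3.59 CPM (3.83 ± 0.25, adjusted p = 5.11e-10). The neural crest and limb transcription factor genes Dlx1 (0.91 ± 0.11), Dlx2 (0.87 ± 0.10) and Sox11 (1.28 ± 0.12), and Slit2, a guidance ligand (1.27 ± 0.082), were higher without overlap between the groups. Of the 5 Dlx genes tested 2 were higher and 0 lower in limma (median 0.07). Of 23 Hox genes 1 was higher and 9 lower (median -0.42), and 2 were lower with the muscle score as a covariate.

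Foxi1, a transcription factor of acid-secreting ionocytes of kidney and airway, had 13.9, 24.4 and 38.2 CPM in FL-HER2 and 2.32, 6.64 and 8.79 CPM in p95HER2 libraries, with no overlap (-2.13 ± 0.22, adjusted p = 6.35e-07). Genes known to act with it in those cells were lower too: the proton pump subunit genes Atp6v0a4 (-2.39 ± 0.24) and Atp6v1b1 (-0.70 ± 0.15), and Tfcp2l1 (-1.28 ± 0.14). With the muscle score as a covariate the 4 changes were -2.67, -2.53, -1.012 and -1.304. Of the 18 V-ATPase subunit genes tested 6 were lower and 0 higher in limma (median -0.12), so most subunits did not pass. Has2, a hyaluronan synthase, had 5.22, 8.86 and 11.97 and 19.7, 24.7 and 36.0 CPM (1.54 ± 0.15, adjusted p = 2.34e-07), and Cd44, the hyaluronan receptor, 236, 259.7 and 305 and 355, 406 and 456 CPM (0.57 ± 0.063, adjusted p = 1.3e-06). The versican-cleaving proteases Adamts1 (1.15 ± 0.12) and Adamts4 (0.96 ± 0.079) and Pthlh, encoding parathyroid hormone-related protein (1.19 ± 0.16), were higher without overlap. Of the 15 ADAMTS genes tested 4 were higher and 3 lower (median 0.03). Of 11 Toll-like receptor genes 5 were lower and 0 higher in limma (median -0.39), the same counts as with the muscle score as a covariate, and they were Tlr1 (-0.96 ± 0.13), Tlr7 (-1.10 ± 0.14), Tlr8 (-0.77 ± 0.14), Tlr9 (-1.04 ± 0.23) and Tlr13 (-0.79 ± 0.13).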
